A study of Mus musculus with 3 samples.

Results

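The 10 genes described here encode sperm membrane proteins of the ADAM family and the endoplasmic reticulum (ER) chaperones that help them fold. They were chosen by symbol among the 31053 genes of the count matrices. The 7 ADAM genes are Adam1a, Adam1b, Adam2, Adam3, Adam5, Adam18 and Adam32, and the 3 chaperone genes are Clgn, Calr3 and Pdilt. All 10 had UMIs in each library. Counts in single-cell data are of unique molecular identifiers (UMIs), each marking 1 captured mRNA molecule.

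Testis cells of adult C57BL/6 males, 8 weeks old per the labels, were studied by droplet single-cell RNA-seq with 1 library per genotype, and about 7000 cells were loaded for each. The groups were wild-type (WT) mice, mice lacking GRTH/DDX25 (KO), and knock-in mice (KI) that carry the human GRTH gene with a missense change of an arginine to a histidine and lack the phosphorylated form of the protein. GRTH/DDX25 is a testis RNA helicase required for the completion of spermatid development. All 3 groups share the strain, and no other allele or agent is named. The labels speak of 1 mouse per genotype, whereas the study's methods pool testes from a pair of mice per group and give a wider age range. Either way the differences between genotypes below are between single libraries, no p-value is given, and intervals cover counting error only.

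Clgn (calmegin) is the testis homologue of the ER chaperone calnexin, Calr3 (calsperin) is a testis relative of calreticulin, and Pdilt is a testis protein of the disulfide isomerase family. ADAM1 and ADAM2 form the fertilin dimers, of which ADAM1A and ADAM1B are the alternative alpha subunits, and ADAM3 (cyritestin) is the sperm surface protein whose loss leaves sperm unable to enter the oviduct. Mouse sperm lacking any of the 3 chaperones lack mature ADAM3 as well, so chaperones and clients are read here side by side. ADAM5, ADAM18 and ADAM32 are further members of the family made mainly in the testis.

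The genes sit in a few places of the mouse genome (GRCm38, GENCODE M21). Adam18 (ENSMUSG00000031552, chr8:24602246-24674755), Adam3 (ENSMUSG00000031553, chr8:24677225-24725852), Adam5 (ENSMUSG00000031554, chr8:24727093-24824369) and Adam32 (ENSMUSG00000037437, chr8:24836140-24948804) are direct neighbours, all on the minus strand, with 2469, 1240 and 11770 bases between them and no other protein-coding gene in between. Calr3 (ENSMUSG00000019732, chr8:72424176-72443870, minus strand, 9 exons) and Clgn (ENSMUSG00000002190, chr8:83389867-83428552, plus strand, 15 exons) lie farther along the same chromosome. Adam1b (ENSMUSG00000062438, chr5:121500098-121503435) has 1 exon and lies 15140 bases from Adam1a (ENSMUSG00000072647, chr5:121518576-121545482), both on the minus strand. Adam2 (ENSMUSG00000022039) is at chr14:66027329-66077733 and Pdilt (ENSMUSG00000030968) at chr7:119486587-119523489, both on the minus strand. The annotated Adam1a gene overlaps Mapkapk5 on its own strand and Tmem116 on the other. Calr3 overlaps Gm3835 and Pdilt overlaps Gm26967, each on its own strand. Some molecules of Adam1a, Calr3 and Pdilt may therefore have gone uncounted. The Adam1a and Adam1b transcripts were 72.3% identical over the aligned bases of their last 500, and none of the 3241 windows of 98 bases in Adam1b occurs in Adam1a, so reads of these genes can be told apart.

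Calr3 and Pdilt were higher after meiosis in the data below while Adam1b was highest in spermatocytes, and the bases just before the annotated start of these genes are therefore shown for comparison. They come from RefSeq promoter windows (GRCm38.p6), which held entries for 4 of the 10 genes (Adam1a, Adam1b, Calr3 and Pdilt), and are written 5′ to 3′ on the minus strand. Capitals mark matches, on either strand, to the CRE TGACGTCA, its half-site TGACG, the MYB-type letters AACTG and the RFX-type letters GTTGCC.
Calr3, chr8:72443871-72444020: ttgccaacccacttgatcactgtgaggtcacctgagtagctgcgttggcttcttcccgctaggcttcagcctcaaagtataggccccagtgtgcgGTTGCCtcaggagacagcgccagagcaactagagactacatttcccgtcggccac
Pdilt, chr7:119523490-119523639: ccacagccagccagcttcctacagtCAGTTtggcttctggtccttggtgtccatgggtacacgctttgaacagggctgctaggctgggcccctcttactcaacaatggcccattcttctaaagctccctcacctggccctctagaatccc
Adam1b, chr5:121503436-121503585: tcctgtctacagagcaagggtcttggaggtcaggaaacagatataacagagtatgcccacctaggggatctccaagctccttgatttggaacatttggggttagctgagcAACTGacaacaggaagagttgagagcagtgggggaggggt
The Calr3 stretch held the letters GTTGCC, which were in 12.4% of 32544 RefSeq promoter windows, and the Pdilt and Adam1b stretches held AACTG, which was in 44.9% of them. These shares are over whole windows, with 250 bases before and 50 after the start, which are longer than the 150 bases shown. The complete CRE, found in 1.80% of windows, was in none of the windows of the 4 genes. Its half-site, found in 20.9% of windows, was in the Calr3 window at 2 places outside the bases shown and in none of the other 3 genes.

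The libraries held 82973909 (WT), 91388296 (KO) and 73150373 (KI) UMIs, and 5856, 4061 and 1566 cells were kept, with median UMIs per cell of 5142.5, 3984 and 11781. Cells were named from marker genes, none of them a member. This gave 1396, 1240 and 556 spermatocyte-like (SP-like) cells in WT, KO and KI, 1285, 1174 and 464 round spermatid-like (RS-like) cells, and 2459, 494 and 199 elongated spermatid-like (ES-like) cells. The median mitochondrial share was 0.0584% in WT against 1.64% in KO and 1.33% in KI. Of the cell barcodes, 16 were shared between WT and KO, 36 between WT and KI (2.30% of the KI cells) and 8 between KO and KI. Ddx25, the targeted gene, had 4613 UMIs in SP-like cells of WT, 11 in KO and 2321 in KI, so KO lacked the transcript as labelled. Levels below are the UMIs of a gene among all UMIs of a class or cluster, scaled to 1000000 (counts per 1000000, CPM). Levels of the members are compared between cells for the same gene and not between genes; the listed genes named further on were chosen by their CPM, which is not scaled by length.

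The chaperones differed in timing. Clgn was high in spermatocytes with most of the ADAM genes, whereas Calr3 and Pdilt were higher in spermatids, where most of the ADAM transcripts were lower. In the class sums, Adam1a alone of the ADAM genes followed the late course, and 6 of 7 were lower in RS-like than in SP-like cells of WT and of KO. In KI, 5 were lower and Adam3 did not differ beyond its counting interval. The median log2 ratio of all genes tested also lay below 0, at -0.32 (WT), -0.26 (KO) and -0.25 (KI). Adam3 lay above that median in KO (-0.13) and KI (-0.01). The signs of the members in WT held under every alternative setting tried. The RS-like sums come mostly from a full-depth cluster (2), given further on, with 86.7% (WT), 82.3% (KO) and 88.8% (KI) of their UMIs. In the other RS-like cluster (1), Adam18 was at 149, 124 and 153 CPM against 140, 159 and 153 CPM in SP-like cells. Adam1b was at 90.8, 136 and 127 CPM there against 107, 114 and 113 CPM. Adam2, Adam3, Adam5 and Adam32 were lower there than in SP-like cells of each library.

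WT spermatocytes held Clgn at 743 CPM and WT round spermatids at 425 CPM (SP-like and RS-like cells). The KO library held 808 and 570 CPM, the KI library 746 and 536 CPM. In the class sums the chaperone was thus higher in SP-like cells and still abundant in RS-like cells. The log2 ratios of RS-like to SP-like cells were -0.81 in WT (95% counting interval -0.85 to -0.76), -0.50 in KO and -0.48 in KI. These ratios, like all others here, are of CPM with 1 added. The median of all 6567 genes tested in WT was -0.32, the level against which such ratios are read. With cells thinned to 1000 UMIs the Clgn ratio was 0.08 in KO and 0.49 in KI, so its direction turned there. In the RS-like cluster of few UMIs (1), given further on, Clgn was at 764 (WT), 1112 (KO) and 1163 CPM (KI). These values lay above the SP-like level of the same library.

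Calr3 went the other way. It had 83 UMIs among 21171410 in SP-like cells of WT (3.92 CPM) and 1132 UMIs in RS-like cells (105 CPM). In KO it was at 2.85 and 62.8 CPM, and in KI at 1.40 and 55.8 CPM. The log2 ratio of RS-like to SP-like cells was 4.43 in WT (4.16 to 4.69), 4.05 in KO and 4.57 in KI. The SP-like levels lay far below the level of the gene in empty droplets (62.1 (WT), 69.1 (KO) and 80.1 CPM (KI)), so no expression of Calr3 in spermatocytes is read from them.

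Pdilt had a like difference between the classes. Its level was 14.5 CPM in SP-like and 262 CPM in RS-like cells of WT, 11.4 and 367 CPM in KO, and 7.82 and 359 CPM in KI. The log2 ratio was 4.08 in WT (3.92 to 4.25), 4.89 in KO and 5.35 in KI. Pdilt and Calr3 had the highest ratios of the 10 genes in each library. The SP-like levels of Pdilt also lay below those in empty droplets (48.0, 72.9 and 88.3 CPM).

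Among the fertilin genes the alpha subunits were opposite in timing. Adam1b was at 107 CPM in SP-like and 62.9 CPM in RS-like cells of WT, at 114 and 82.8 CPM in KO, and at 113 and 82.2 CPM in KI. Adam1a had 22 UMIs in SP-like cells of WT (1.04 CPM) and 103 in RS-like cells (9.53 CPM), with 0.398 and 10.9 CPM in KO and 0.265 and 13.9 CPM in KI. The log2 ratio of Adam1a was 2.37 in WT (1.94 to 2.75), 3.09 in KO and 3.55 in KI, against -0.76, -0.46 and -0.46 for Adam1b, which turned to 0.12 in KO and 0.08 in KI with thinned cells. The RS-like level of Adam1a was close to that in empty droplets (9.46 to 11.8 CPM), and its low counts limit what can be said of it. Adam2, the beta subunit, had the lowest ratio of all members in WT and KI, from 486 to 174 CPM in WT, from 536 to 216 CPM in KO and from 551 to 194 CPM in KI, with log2 ratios of -1.48, -1.31 and -1.501.

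The neighbouring genes of chromosome 8 differed in how far their levels were apart between the classes. Adam18 went from 140 to 66.0 (WT), 159 to 61.0 (KO) and 153 to 62.9 CPM (KI), with log2 ratios of -1.07, -1.37 and -1.27, the last of which was 0.35 with thinned cells. Adam3, 2469 bases away, went from 534 to 431 CPM in WT, from 567 to 517 CPM in KO and from 574 to 572 CPM in KI, with ratios of -0.31, -0.13 and -0.01 (-0.05 to 0.04 in KI), of which those of KO and KI turned to at most 0.03 and 0.11 under other settings. Adam5 and Adam32 lay between, with ratios in WT of -0.58 and -0.92. In the class sums Adam3, the client named for dependence on all 3 chaperones, thus had the smallest difference of the 7 ADAM transcripts. In WT it equalled the median of all genes to within 0.01. Its RS-like levels in WT and KO lay below those in empty droplets (444 and 538 CPM). In the RS-like cluster of few UMIs (1), given further on, Adam3 was at 186 (WT), 260 (KO) and 185 CPM (KI). Adam18 was at 149, 124 and 153 CPM in that cluster, so the ranking does not hold there.

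Read against the 2-fold mark, 3 members were higher in RS-like cells in each library (Calr3, Pdilt and Adam1a), where 26.6% of genes tested in WT, 27.0% in KO and 26.6% in KI were. Adam2 and Adam18 were at least 2-fold lower in each, where 29.6%, 28.3% and 28.9% of genes were. Changes of this size between the classes were therefore common. By kind, the ADAM genes had a median log2 ratio of -0.76 in WT, -0.46 in KO and -0.46 in KI, and the chaperones 4.08, 4.05 and 4.57.

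**Figure D1:**
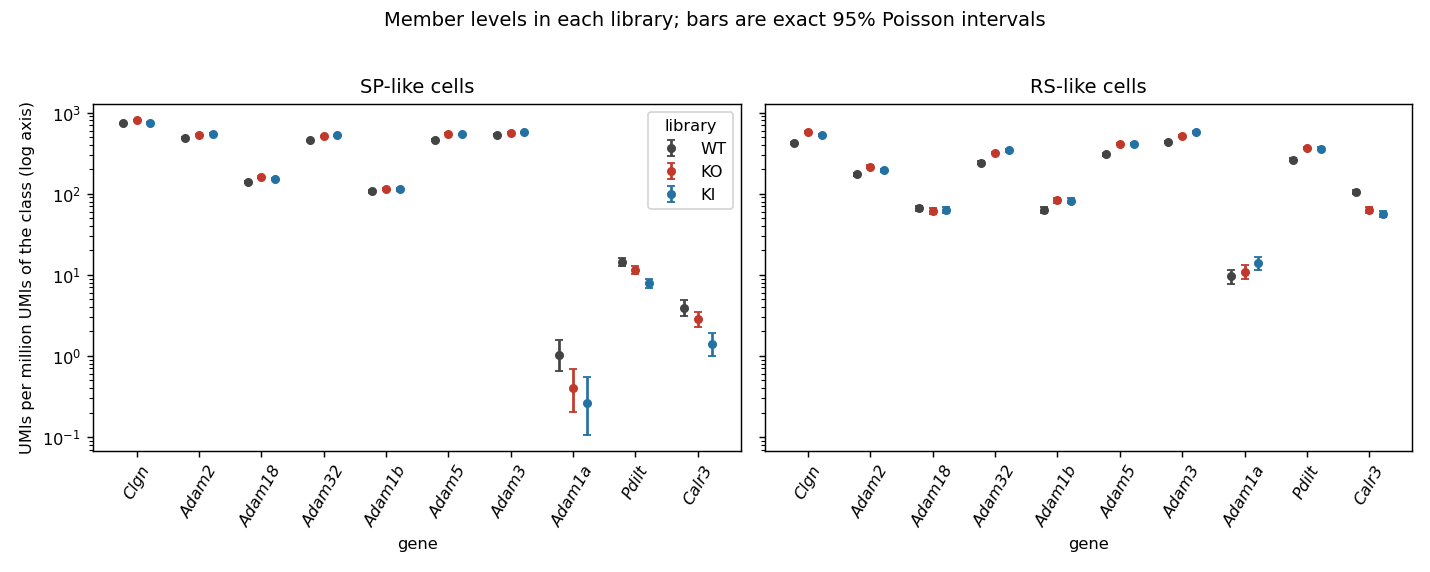
Level of each gene in SP-like (left) and RS-like (right) cells, in CPM on a log axis, with 1 point per library (WT, KO and KI) and exact 95% Poisson intervals. Clgn and most ADAM genes lie above 100 CPM in SP-like cells, whereas Pdilt, Calr3 and Adam1a lie below 15 CPM there and are higher in RS-like cells.

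The germ cell clusters divide the classes further. Ordered by their markers they were 12 (early meiotic prophase-like), then 6, 11 and 8 (SP-like), 2 (RS-like) and 7, 5 and 3 (ES-like). The order of 7 before 5 was set from the round spermatid markers after the clusters were seen. A computed position along development (diffusion pseudotime) put 5 before 7, with medians of 0.8795 and 0.8809 (WT), 0.861 and 0.872 (KO), and 0.855 and 0.872 (KI). Prm1 in KO was also lower in cluster 5 (12142 CPM) than in 7 (23071 CPM), unlike in WT and KI. Cluster 3 held 1122 cells of WT but 11 of KO and 1 of KI, and is given for WT alone. The clusters of few UMIs (1 and 9) and the small cluster 14 stand outside this order and are given further on. Levels are given as a percent of the gene's highest cluster in the order.

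In WT, Clgn was at 264 CPM in cluster 12, 785 CPM in cluster 6 and 807 CPM in cluster 11, and at 10.9% of its peak in cluster 7. Adam2 was at 151 CPM in cluster 12 and had its highest value in cluster 6 (644 CPM). The level of Clgn in cluster 12 lay below that in empty droplets (294 CPM), as did those of the other members except Adam2 (131 CPM in empty droplets). Pdilt lay much further below its own level, at 4.41 CPM against 48.0 CPM. What share of the Clgn level is free RNA was not tested, and no order of first appearance is read from this cluster. Clgn and Adam2 had a Pearson correlation of log2 levels of 0.97 over 31 points of cluster and library.

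Adam18 and Adam32 had their highest values in cluster 6 as well, at 171 and 539 CPM in WT. Adam5 was about as high in cluster 6 (472 CPM) as in cluster 11 (99.6% of that value), and in both mutants cluster 11 was its highest. Adam1b and Adam3 were highest in cluster 11 of WT, at 143 and 621 CPM. Adam3 was still at 75.4% of its peak in cluster 2 and at 76.8% in cluster 5, where Adam2 was down to 2.02%, Adam18 to 2.71% and Adam1b to 1.90%. Adam5 was at 34.7% and Adam32 at 9.62% of the peak in cluster 5. In cluster 5 of WT, Adam3 had 477 CPM against 444 CPM in the empty droplets of that library, and whether free RNA contributed to this level was not tested.

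Along this order Pdilt had its highest level before Calr3 in WT, whereas both were highest in cluster 7 in KO and KI. In WT, Pdilt was at 1.49 CPM in cluster 6, 37.8 CPM in cluster 8, 178 CPM in cluster 2 and 72.7 CPM in cluster 7. Calr3 was at 1.59, 2.52, 59.6 and 291 CPM in the same clusters. Of the clusters in the order, Pdilt was highest in cluster 2 and Calr3 in cluster 7. The RS-like cluster 1, outside the order, held both at higher levels in WT, at 810 CPM (Pdilt) and 398 CPM (Calr3). The level of Pdilt in cluster 8 lay below that in empty droplets (48.0 CPM). That of Calr3 in cluster 8 lay much further below its own (62.1 CPM). What share of the Pdilt level is free RNA was not tested. Adam1a was at 0.299 CPM in cluster 6, 8.86 CPM in cluster 2 and 13.4 CPM in cluster 5.

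In cluster 12 of both mutants all 10 members lay below their levels in empty droplets, and they are not compared with WT there. Adam3 had its highest value in cluster 8 of both mutants, 662 CPM in KO and 714 CPM in KI. Clgn was at 822 CPM in cluster 6 of KO and 754 CPM in KI, Adam2 at 635 and 653 CPM, and Adam3 at 503 and 511 CPM. Calr3 was highest in cluster 7 of both (346 and 349 CPM). Pdilt was about as high in cluster 7 (252 and 230 CPM) as in cluster 2 (213 and 215 CPM), which differs from WT, where cluster 7 was at 40.9% of cluster 2.

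**Figure D2:**
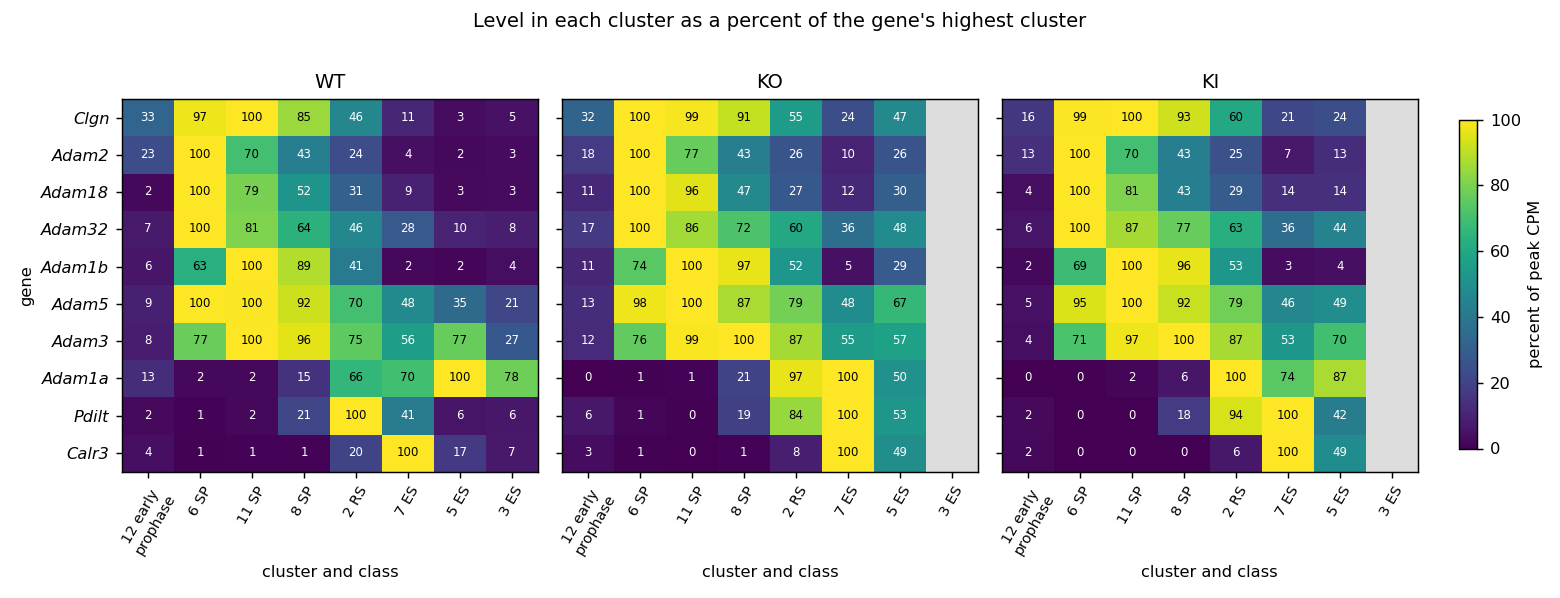
Level of each gene in 8 germ cell clusters, from early meiotic prophase-like to ES-like, as a percent of the gene's highest cluster in the same library (WT, KO and KI panels); grey marks clusters with too few cells. Clgn and 6 of the ADAM genes peak in the SP-like clusters and Pdilt, Calr3 and Adam1a in spermatid clusters in all 3 panels; cluster 5 holds 193 cells in KO and 79 in KI.

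Cluster 5 could not be compared between genotypes. It held 193 cells and 2785 UMIs per cell in KO and 79 cells and 2088 UMIs per cell in KI, against 817 cells and 9488 UMIs per cell in WT. In KO its level of Clgn was 385 CPM, beside 394 CPM in empty droplets, that of Adam2 164 CPM beside 174 CPM, and that of Adam18 52.1 CPM beside 51.0 CPM. Of all genes tested, 67.4% were at least 2-fold higher than in WT there in KO and 63.9% in KI.

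Free RNA limits the lower levels in general. Sertoli-like cells, somatic cells that should not hold these transcripts, showed Clgn levels of 410 (WT), 494 (KO) and 404 CPM (KI), and 444, 477 and 419 CPM of Adam3, at 1478 to 1552.5 median UMIs per cell. The Leydig-like cluster, with 6894 to 18945 median UMIs per cell, had 91.8, 53.1 and 62.6 CPM of Adam3 (12, 11 and 26 UMIs). The germ cell RNA in somatic cells therefore differed by cluster, and a level of Clgn or Adam3 in a shallow cluster cannot be read as expression by itself. In RS-like cells Adam5 and Adam32 lay below their levels in empty droplets in each library, as did Adam3 in WT and KO and Calr3 in KO and KI; what share of these levels is free RNA was not tested.

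The RS-like class joined a full-depth cluster (2) and a cluster of few UMIs (1), and the members were split between them. Cluster 1 held 732, 770 and 274 cells in WT, KO and KI, with 1276 to 2045.5 median UMIs per cell against 12499 to 27616.5 in cluster 2. Its 10 leading genes included Pcdh9, Acrv1, Spaca1 and Pdilt itself. Pdilt was at 810, 1078 and 1497 CPM in cluster 1 of WT, KO and KI, and at 178, 213 and 215 CPM in cluster 2. Calr3 was at 398, 218 and 322 CPM against 59.6, 29.4 and 22.03 CPM, and Clgn at 764, 1112 and 1163 CPM against 372, 453 and 456 CPM.

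Adam3 and Adam5 behaved in the opposite way. Adam3 was at 186, 260 and 185 CPM in cluster 1 against 468, 573 and 621 CPM in cluster 2, and Adam5 at 139, 215 and 155 CPM against 331, 450 and 447 CPM. Adam18, next to Adam3 on the chromosome, was higher in cluster 1 (149, 124 and 153 CPM) than in cluster 2 (53.2, 47.4 and 51.4 CPM). Adam2 was higher as well, with log2 ratios of 1.07, 1.43 and 1.49, and Adam1b with ratios of 0.62, 0.92 and 0.73. Adam32 was lower, at -0.46, -0.48 and -0.51. For 9 of the 10 genes the sign was shared by the 3 libraries with intervals that did not reach 0; the intervals of Adam1a, with 13 to 20 UMIs in cluster 1, did. These differences between clusters are a description, with no test. In cluster 1 Adam3, Adam5 and Adam32 lay below their levels in empty droplets in each library, and in cluster 2 Adam5, Adam32 and Calr3 did. Adam2 and Adam18 lay below them in cluster 2 of KO and KI, and Adam1a in cluster 2 of WT. What share of these levels is free RNA was not tested. The SP-like cluster of few UMIs (9) was like cluster 1 for some members and not for others when set against cluster 6. Pdilt (3.74, 3.03 and 1.62) and Calr3 (3.04, 2.73 and 1.63) were higher in cluster 9 and Adam32 lower (-0.63, -0.49 and -0.36), as in cluster 1, but both Pdilt and Calr3 lay below their levels in empty droplets in clusters 9 and 6 (4 to 67 UMIs in cluster 9), unlike in cluster 1. Adam18 was lower in cluster 9, with log2 ratios of -0.70, -0.53 and -1.12, as were Adam2 (-1.07, -0.64 and -0.75) and Clgn (-0.53, -0.45 and -0.38), and Adam3 was at -0.01, -0.15 and -0.13. In the small SP-like cluster 14, led by Magi2, Adam18 (1.25, 1.20 and 1.60), Adam2 (0.43, 0.41 and 0.45) and Clgn (0.75, 0.83 and 0.95) were higher than in cluster 6, as in cluster 1. Adam5 was lower in WT and KO (-0.54 and -0.31) and at -0.25 in KI, with an interval that reached 0, whereas Adam3 (0.70, 0.57 and 0.29) and Adam32 (0.74, 0.52 and 0.67) were higher.

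**Figure D3:**
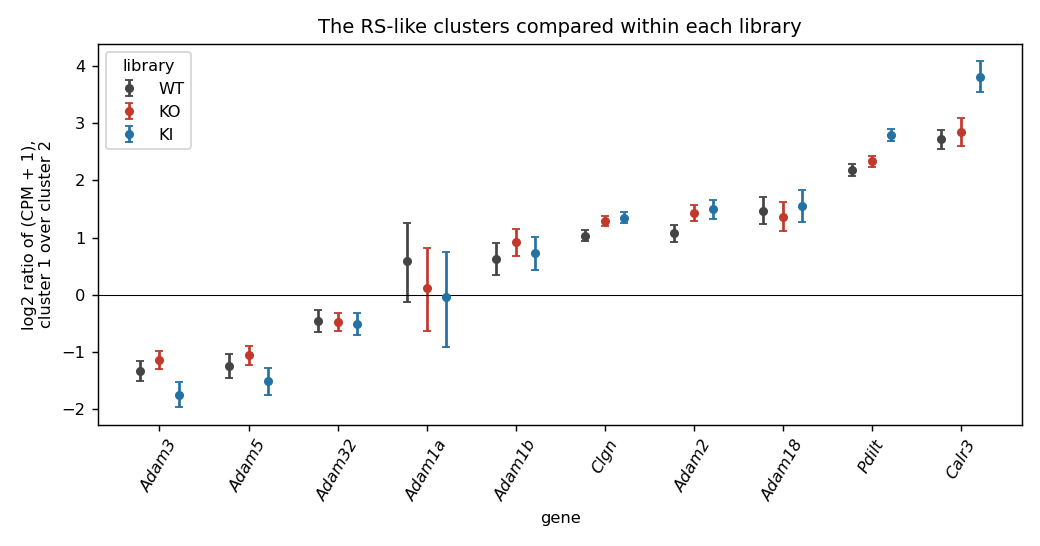
The log2 ratio of the level in cluster 1, of few UMIs, to that in cluster 2, both RS-like, for each gene and library, with exact 95% counting intervals. Adam3, Adam5 and Adam32 lie below 0, and Clgn, Adam2, Adam18, Adam1b, Pdilt and Calr3 lie above 0 in all 3 libraries.

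The comparison of KO and KI with WT asks whether transcripts of these sperm proteins depend on GRTH/DDX25 or on its phosphorylated form. In SP-like cells the levels hardly moved. Clgn and the ADAM genes other than Adam1a had log2 ratios of 0.08 to 0.26 in KO and of 0.01 to 0.23 in KI, where the median of 6155 genes was 0.03 and 0.06. The largest was that of Adam5, from 459 CPM in WT to 549 CPM in KO and 539 CPM in KI. Calr3, Pdilt and Adam1a, each low in SP-like cells, were lower in both mutants, with ratios of -0.35, -0.32 and -0.54 in KO and -1.04, -0.81 and -0.69 in KI. All 3 lay below their levels in empty droplets in SP-like cells of each library, so no change in expression is read from these ratios. These directions did not hold everywhere: without cell calling Calr3 was at 1.19 in KO and 0.11 in KI, without integration Pdilt was at 0.35 and 0.24 and Adam1a at 0.08 and 0.12, and with marker gates Calr3 in KO was at 0.26. Only Calr3 in KI passed the 2-fold mark (37 against 83 UMIs), and no member of KI did with 10 CPM added, with cells called by UMI totals alone, without cell calling, without integration, with marker gates, with doublets removed or with thinned cells; without cluster 8 there were 2 in KI. Among the 6155 genes of 20 CPM or more, to which Calr3 with its low level does not belong, 2.37% were that much lower and 0.146% higher in KI; in KO no member did, where 1.33% were lower and 0.0812% higher, apart from Calr3 without cell calling (1.19) and Calr3 and Adam1a with thinned cells (-1.75 and -1.19). Summed markers of round spermatids moved in the same direction in these cells, at 428 (WT), 256 (KO) and 193 CPM (KI). Those of elongated spermatids did too, at 4981 (WT), 549 (KO) and 259 CPM (KI). The part of either set in the lower values, and that of free RNA in the sets, was not tested. The make-up of the class differed too, with cluster 8 holding 26.3% (WT), 14.6% (KO) and 17.6% (KI) of its UMIs. Within cluster 8 Pdilt was higher in both mutants, with log2 ratios of 0.33 and 0.10, the KI interval reaching 0. Pdilt was lower in cluster 11 of both (-1.09 and -2.21), on 9 (KO) and 0 (KI) UMIs against 12 in WT. In clusters 6, 9 and 14 it was higher in KO and lower in KI. The intervals of cluster 6 in KI, cluster 9 in KO and cluster 14 in both mutants reached 0.

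After meiosis, in the RS-like class, 8 of the 10 genes were higher in both mutants than in WT, as were 55.6% of the 6211 genes tested (40.4% with TMM factors). None passed the 2-fold mark with totals as the scale, where 2.25% of genes were lower and 2.14% higher by that much in KO, and 3.27% and 2.74% in KI. In KI, Calr3 passed the mark with TMM factors (-1.04), with cells called by UMI totals alone (-1.35) and without cluster 1 (-1.39), and Pdilt with cells thinned to 1000 UMIs (1.26). The smaller of the 8 differences lay among those of most genes: Adam2 in KI was above 53.3% of the genes tested and Adam1a in KO above 55.9%, and both were within 0.02 of 0 with TMM factors. The ADAM genes had a median log2 ratio of 0.31 in KO and 0.41 in KI, and the median of all genes tested was 0.11 and 0.12. With TMM factors in place of totals the ADAM medians were 0.14 and 0.26 and those of all genes -0.06 and -0.02. Without integration the ADAM medians were -0.00338 and 0.16, and the signs of Adam1b and Adam2 turned in both mutants and that of Adam3 in KO; the sign of Adam1a turned in both with thinned cells, and that of Adam2 in KI with marker gates (-0.11). The clusters without integration were split by genotype in part: of their 3 RS-like clusters, the most numerous held 805 WT, 848 KO and 286 KI cells, another 0 WT, 411 KO and 147 KI cells, and the last 527 WT, 22 KO and 5 KI cells.

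Adam3 was at 431 CPM in RS-like cells of WT, 517 in KO and 572 in KI, with log2 ratios of 0.26 (0.20 to 0.32) and 0.41 (0.35 to 0.47). Adam32 was at 241, 319 and 342 CPM, with ratios of 0.41 and 0.51. Adam5 was at 306, 409 and 414 CPM, with ratios of 0.42 and 0.44. These 3 transcripts, highest in spermatocytes, were higher in RS-like cells of both mutants, apart from Adam3 in KO without integration (-0.00338), and Adam18, their neighbour, was the exception in this group of 4 adjacent genes, at 66.0, 61.0 and 62.9 CPM, with ratios of -0.11 (-0.27 to 0.05) and -0.07 (-0.23 to 0.09). Fertilin genes also lay above WT, with ratios of Adam1b of 0.39 and 0.38 and of Adam2 of 0.31 and 0.16. Summed spermatocyte markers moved with them, at 2330 CPM in RS-like cells of WT, 3185 in KO and 3115 in KI, and their part was not tested. The empty droplets moved in the same direction, with Adam3 at 444 (WT), 538 (KO) and 517 CPM (KI), Adam5 at 353, 463 and 449 CPM and Adam32 at 300.5, 375 and 380 CPM, and the part of free RNA was not tested either.

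Of the chaperones, Clgn stood at 425 CPM in WT against 570 in KO and 536 in KI, with log2 ratios of 0.42 (0.37 to 0.48) and 0.33 (0.28 to 0.39). Pdilt stood at 262 CPM against 367 and 359 CPM, with ratios of 0.48 (0.41 to 0.56) and 0.45 (0.38 to 0.53). In empty droplets both were likewise higher in the mutants, with Clgn at 294, 394 and 328 CPM and Pdilt at 48.0, 72.9 and 88.3 CPM. Calr3 was the single member whose interval lay below 0 in both, at 105 (WT), 62.8 (KO) and 55.8 CPM (KI), with ratios of -0.73 (-0.88 to -0.58) and -0.90 (-1.05 to -0.74). Of all genes tested, 5.12% had a lower ratio in KO and 4.14% in KI. The clusters of the class differed. In cluster 1, where Calr3 lay above its level in empty droplets, it was at 398 (WT), 218 (KO) and 322 CPM (KI), with ratios of -0.87 (-1.06 to -0.67) and -0.30 (-0.51 to -0.10). In cluster 2 it went from 59.6 to 29.4 and 22.03 CPM, with ratios of -0.99 and -1.39, where 2.95% of genes in KO and 3.53% in KI were at least 2-fold lower. All 3 of these cluster 2 levels, and the RS-like levels of KO and KI, lay below those of Calr3 in empty droplets.

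**Figure D4:**
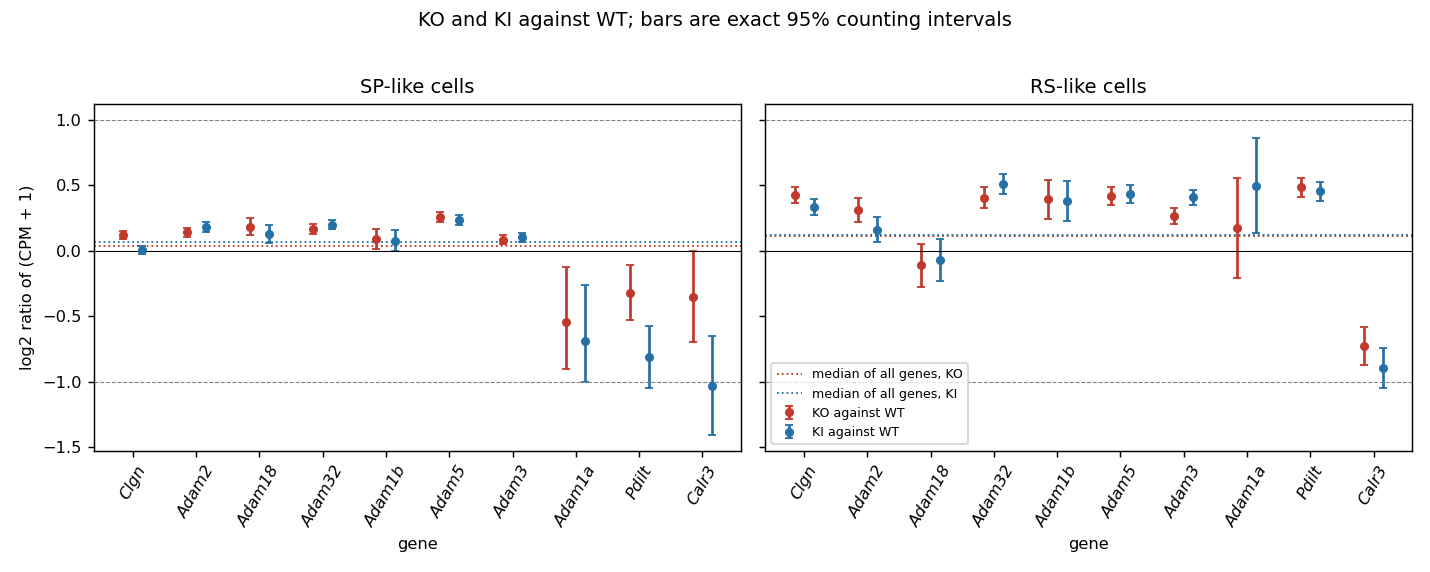
The log2 ratio of KO and of KI to WT for each gene in SP-like (left) and RS-like (right) cells, with exact 95% counting intervals; dotted lines give the median of all genes tested and dashed lines the 2-fold mark. In RS-like cells Calr3 lies below 0 in both mutants, Adam18 lies near 0, and the other 8 genes lie above 0.

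The direction of Calr3 changed with the setting. With clusters of the merged libraries without integration the ratios were 0.47 in KO and 0.29 in KI, and with cells classed by marker gates they were 0.31 and 0.06, so the direction turned. With cells thinned to 1000 UMIs they were -0.46 and 0.53. In cluster 7, its highest along the order, Calr3 was at 291 (WT), 346 (KO) and 349 CPM (KI), with ratios of 0.25 and 0.26, below the median of all genes there (0.48 in both). Transcripts of the protamine stage were lower together with Calr3 within cluster 2, with Prm1 at 1803 (WT), 384 (KO) and 179 CPM (KI) and Tnp1 at 1340, 758 and 488 CPM. Acrv1, an acrosomal gene of round spermatids, was at 630, 615 and 604 CPM. Summed over their list, elongated spermatid markers were at 12074, 5387 and 4191 CPM in RS-like cells. Prm1 was also lower in the mutants in SP-like cluster 6, at 771 (WT), 78.9 (KO) and 39.5 CPM (KI). In the Leydig-like cluster it was at 21173, 242 and 86.7 CPM. The part of these transcripts in the Calr3 difference, and that of free RNA in their levels, was not tested. The empty droplets held Calr3 at 62.1 (WT), 69.1 (KO) and 80.1 CPM (KI).

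**Figure D5:**
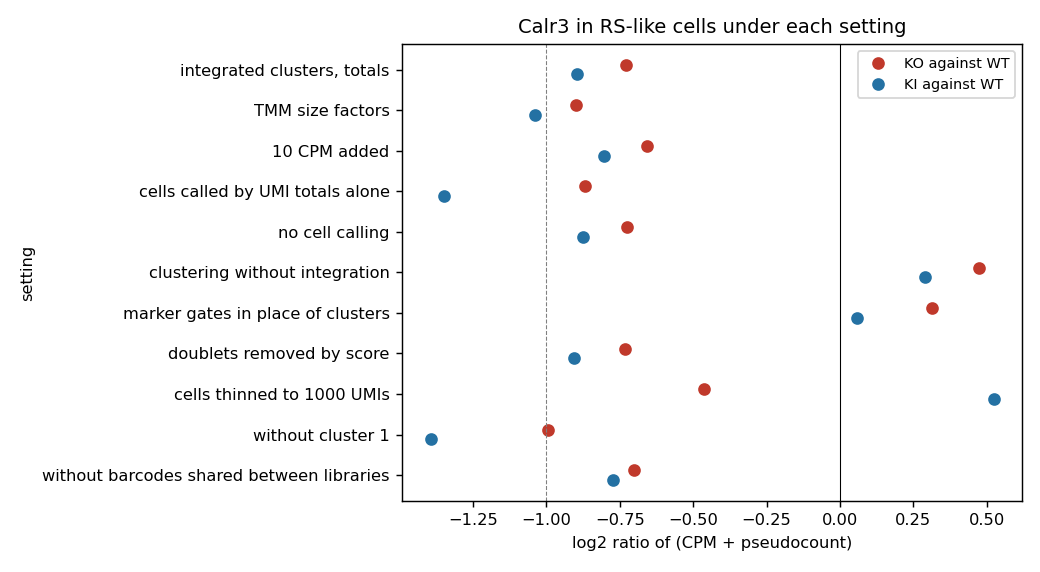
The log2 ratio of KO and of KI to WT for Calr3 in RS-like cells under each processing setting, with 0 as a solid line and the 2-fold mark dashed. Both values lie below 0 with the integrated clusters and above 0 without integration and with marker gates; with cells thinned to 1000 UMIs they fall on opposite sides.

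In cluster 7 the other chaperones were higher in both mutants. Pdilt was at 72.7 (WT), 252 (KO) and 230 CPM (KI), with log2 ratios of 1.78 (1.65 to 1.92) and 1.65 (1.498 to 1.80). Clgn was at 87.8, 197 and 161 CPM, with ratios of 1.15 and 0.87, and Adam2 at 26.3, 64.4 and 43.9 CPM, with ratios of 1.26 and 0.72. The counts past 2-fold higher were 3 members in KO and 1 in KI, where 23.0% and 23.3% of genes were. Adam3 hardly differed, at 349, 366 and 378 CPM. The levels of Clgn, Adam2 and Adam3 in cluster 7 lay below those in empty droplets in each library, and those of Pdilt above. Acrv1 was also higher in cluster 7 of the mutants (248, 546 and 524 CPM), and Prm1 lower (75633, 23071 and 22662 CPM), and their part in the differences was not tested.

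Related genes place the members in their families. Of 14 other testis ADAM genes listed, 13 were in the matrix, and 12 of the 13 (in WT 8 of the 9 with 20 CPM or more over the classes, where 26.6% of genes tested were) were at least 2-fold higher in RS-like than in SP-like cells in each library, with a median log2 ratio of 3.10 (WT), 3.62 (KO) and 3.96 (KI). The exception was Adam30, with 71.7 CPM in SP-like and 45.5 CPM in RS-like cells of WT. Adam29 was the highest of them in RS-like cells of WT (94.1 CPM), followed by Adam24 and Adam34 (79.5 CPM each), and Adam34 was second to Adam30 in SP-like cells (23.3 CPM). In the class sums most other testis ADAM genes thus shared the late course of Adam1a and not the early course of the other 6 ADAM genes described here. Of the 13, all had at least 20 CPM on average in RS-like cells, and Adam39 was at least 2-fold lower in both mutants, at 54.3 (WT), 24.5 (KO) and 22.5 CPM (KI), with log2 ratios of -1.12 and -1.24. Adam25 lay near the mark, at 38.6, 19.4 and 18.5 CPM, with ratios of -0.95 and -1.02, and was past it in both with TMM factors (-1.12 and -1.16). Both genes are named after their values were seen. Summed elongated spermatid markers were also lower in RS-like cells of the mutants (12074 (WT), 5387 (KO) and 4191 CPM (KI)). Their part, and that of free RNA in them, was not tested. The list's median was 0.06 in KO and 0.04 in KI.

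Of 13 widely expressed ADAM genes, Adam22, which lacks protease activity and is best known from neurons, was the only one with 20 CPM or more. It was higher in RS-like cells of both mutants (30.0 (WT), 64.4 (KO) and 70.3 CPM (KI)), with log2 ratios of 1.08 and 1.20, of which the KO value was 0.91 with TMM factors. Adam17, the sheddase of tumour necrosis factor, was at 9.73 CPM in SP-like cells of WT, and Adam15 at 10.7 CPM in RS-like cells.

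General ER folding factors, like Clgn, were mostly lower in RS-like cells. Of 17 such genes, 10 (WT), 6 (KO) and 9 (KI) were at least 2-fold lower in RS-like than SP-like cells, with median log2 ratios of -1.41, -0.71 and -1.12, and Pdia4 was at least 2-fold higher in KO and KI (1.38 and 1.37). Among the 11 with 20 CPM or more over the classes, 6, 3 and 6 were at least 2-fold lower, where 29.6%, 28.3% and 28.9% of genes tested were. Hsp90b1 and Hspa5, the ER forms of HSP90 and HSP70, stood highest in SP-like cells of WT (570 and 423 CPM) and were at 135 and 137 CPM in RS-like cells. Within RS-like cells of WT, Erp29 and Calr, the ubiquitous calreticulin, were the highest of the list (177 and 172 CPM). Both were lower there than in SP-like cells of WT (219 and 341 CPM). Between genotypes, the 9 of them with 20 CPM or more in RS-like cells had a median log2 ratio of 0.69 in KO and 0.48 in KI, against 0.11 and 0.12 for all genes, and 1 in each passed the mark (Hspa5 in KO, 137 to 293 CPM, and Ero1lb in KI, 77.3 to 187 CPM; both genes are named here after their values were seen). With TMM factors Hspa5 in KO was at 0.92, below the mark. The 2 testis chaperones that were higher in RS-like cells of the mutants, Clgn and Pdilt, had values within the range of this list. Summed spermatocyte markers were also higher in RS-like cells of the mutants (2330 (WT), 3185 (KO) and 3115 CPM (KI)), and their part in the list's values was not tested.

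Of 10 other genes needed for ADAM3 to mature or reach the surface, Cmtm2b and Cmtm2a were highest in both classes of WT, at 1580 and 1231 CPM in SP-like and 1307 and 1067 CPM in RS-like cells. Of the list, 4 genes were at least 2-fold higher and 4 at least 2-fold lower in RS-like than in SP-like cells in each library. Of the 6 with 20 CPM or more over the classes, 2 were higher and 2 lower by that much, where 26.6 to 27.0% of genes tested were higher and 28.3 to 29.6% lower. In RS-like cells 7 of them had 20 CPM or more, with a median log2 ratio of -0.02 in KO and -0.02 in KI, and none was past 2-fold in both mutants. Prss37 was past it in KI, at 29.9 (WT), 18.6 (KO) and 12.3 CPM (KI), with log2 ratios of -0.65 and -1.21, and is named after its values were seen.

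Genes with a pattern most like that of each member were sought among 13032 genes over the 31 points of cluster and library, as a description. Pdilt was most like Spaca5 (Pearson r = 0.98) and Acrv1 (r = 0.97), genes of the acrosome, and Calr3 most like 1700030F04Rik (r = 0.98) and Cd59a (r = 0.97). Adam3 was most like Fbxw10 (r = 0.96) and Asrgl1 (r = 0.96), and Adam5 like Asrgl1 (r = 0.98). Adam2 was most like Dnah12 (r = 0.98), Adam18 like Abca14 (r = 0.98), Adam32 like Slc30a3 (r = 0.97), Adam1b like Galnt3 (r = 0.98) and Adam1a like Tmem82 (r = 0.94). Between members, Adam3 and Adam5 correlated at 0.94, Adam2 and Clgn at 0.97, Adam3 and Clgn at 0.39, Calr3 and Pdilt at 0.80, and Adam1a and Adam1b at -0.41. The points share libraries and depth, so these values carry no test.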

How the data were processed

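Count matrices of all barcodes were deposited by the authors for 3 libraries. Their values are raw UMI counts per gene, made with Cell Ranger (version 4 per the file headers, 2.1.1 per the submitters' processing notes) against mm10. The 10 genes and all lists were chosen with earlier results of these data known. Cells were called from UMI totals and then from their difference to empty droplets (false discovery rate 0.01), and kept above 500 genes and under 10% mitochondrial UMIs. SCTransform residuals of 2000 genes, none of them a member, were used to align the libraries (Seurat 5.3.0), followed by Leiden clustering (leidenalg 0.10.2) at resolution 0.3 on 100 components. Clusters were named from markers ("-like"), so the names are rebuilt and not the authors' own. Doublets were kept; Scrublet marked 2.85%, 0.123% and 1.09% of WT, KO and KI cells, the KO share being too low for the caller to have worked.

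UMIs were summed per class and library. Ratios are log2 of CPM plus 1; levels have exact Poisson and ratios exact binomial 95% intervals. Shares of all genes past 2-fold are over genes of at least 20 CPM on average. The ratio formula, written out again in separate code, was run on simulated counts with large changes. This was a check of the formula alone. TMM factors came from edgeR 4.0.16. With 1 library per genotype no test across animals was possible. Named were all members, listed genes past 2-fold in both mutants, the 2 highest of each list in WT SP-like and RS-like cells, and the closest genes by correlation. Chemistry and sequencer differ between the labels and the methods.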

Additional observations from a re-analysis of the deposited data

How the results depend on the processing

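The direction of the 70 member ratios was compared across settings, of which leaving out cluster 8, cluster 1 or shared barcodes was chosen after seeing the data. With TMM factors 70 kept their sign, with 10 CPM added 70, with cells called by UMI totals alone 67, without cell calling 60, without integration 58, with marker gates 65, with doublets removed 69, with thinned cells 56, and without shared barcodes 70. Of 50 ratios each, 48 kept it without cluster 8 and 48 without cluster 1. Of the 16 ratios past 2-fold, 2 changed sign: Calr3 in SP-like cells of KI, at 0.11 without cell calling, and Adam18 in RS-like to SP-like cells of KI, at 0.35 with thinned cells. The log2 medians and counts that moved follow; the cause was not tested. With 10 CPM added the chaperone median of RS-like to SP-like cells was 3.04 in WT, 2.50 in KO, 2.53 in KI, and the chaperone median against WT in SP-like cells was -0.29 (KI), and the number of members past the mark was 0 in SP-like cells of KI. With TMM factors the chaperone median against WT in RS-like cells was 0.25 (KO), 0.19 (KI), and the ADAM median of RS-like to SP-like cells was -0.60 in WT, and the ADAM median against WT in RS-like cells was 0.14 (KO), and the number of members past the mark was 1 in RS-like cells of KI. With cells called by UMI totals alone the chaperone median of RS-like to SP-like cells was 3.69 in WT, 3.36 in KO, 3.59 in KI, and the chaperone median against WT in RS-like cells was 0.26 (KO), and the ADAM median of RS-like to SP-like cells was -0.64 in KO, and the number of members past the mark was 0 in SP-like cells of KI, 1 in RS-like cells of KI. Without cell calling the chaperone median of RS-like to SP-like cells was 3.78 in WT, 1.86 in KO, 2.79 in KI, and the chaperone median against WT in SP-like cells was 0.63 (KO), -0.028 (KI), and the ADAM median of RS-like to SP-like cells was -0.36 in KO, and the ADAM median against WT in SP-like cells was 0.060 (KO), and the number of members past the mark was 1 in SP-like cells of KO, 0 in SP-like cells of KI. With clustering without integration the chaperone median of RS-like to SP-like cells was 3.42 in WT, 3.55 in KO, 3.76 in KI, and the chaperone median against WT in SP-like cells was 0.13 (KO), -0.021 (KI), and the ADAM median of RS-like to SP-like cells was -0.99 in WT, -1.07 in KO, -0.98 in KI, and the ADAM median against WT in RS-like cells was -0.00338 (KO), 0.16 (KI), and the number of members past the mark was 0 in SP-like cells of KI. With marker gates in place of clusters the chaperone median of RS-like to SP-like cells was 4.45 in KO, and the chaperone median against WT in SP-like cells was 0.13 (KO), -0.17 (KI), and the chaperone median against WT in RS-like cells was 0.31 (KO), 0.15 (KI), and the ADAM median of RS-like to SP-like cells was -0.99 in WT, -0.90 in KO, -0.83 in KI, and the ADAM median against WT in RS-like cells was 0.13 (KO), and the number of members past the mark was 0 in SP-like cells of KI. With doublets removed by score the chaperone median of RS-like to SP-like cells was 4.37 in KO, and the number of members past the mark was 0 in SP-like cells of KI. With cells thinned to 1000 UMIs the chaperone median of RS-like to SP-like cells was 4.98 in KO, 5.52 in KI, and the chaperone median against WT in SP-like cells was -0.50 (KI), and the chaperone median against WT in RS-like cells was 0.63 (KO), 0.87 (KI), and the ADAM median of RS-like to SP-like cells was -0.62 in WT, -0.65 in KO, -0.61 in KI, and the ADAM median against WT in SP-like cells was 0.19 (KO), 0.27 (KI), and the number of members past the mark was 2 in SP-like cells of KO, 0 in SP-like cells of KI, 1 in RS-like cells of KI. At 1.5-fold the number of members past the mark was 3 in SP-like cells of KI, 1 in RS-like cells of KO, 1 in RS-like cells of KI. No share of all genes at 1.5-fold is given, so these counts cannot be set against a background. The 3 in SP-like cells of KI (Calr3, Pdilt and Adam1a) lay below their levels in empty droplets there. Without cluster 1 the chaperone median of RS-like to SP-like cells was 3.53 in WT, 2.98 in KO, 3.26 in KI, and the chaperone median against WT in RS-like cells was 0.26 (KO), and the ADAM median of RS-like to SP-like cells was -0.60 in KO, and the number of members past the mark was 1 in RS-like cells of KI. Without cluster 8 the chaperone median of RS-like to SP-like cells was 4.29 in WT, and the chaperone median against WT in SP-like cells was -1.14 (KI), and the ADAM median against WT in SP-like cells was 0.10 (KO), and the number of members past the mark was 2 in SP-like cells of KI. No paired analysis was possible because each genotype has 1 library and the labels give no replicate numbers. Leaving out a replicate was not possible for the same reason. Depth limits Adam1a in both classes and Calr3 and Pdilt in SP-like cells, and free RNA limits every low level.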
